A study of Mus musculus with 9 samples.

Results

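The effect of B-LGND2 on white adipose tissue was examined in mice kept on a high fat diet, by setting 3 libraries from mice given B-LGND2 against 3 from mice given vehicle. These are 6 of the 9 libraries of the series, and they were taken by their diet and treatment labels alone. All animals were male C57BL/6 mice, an inbred laboratory strain, and tissue was collected after 9 weeks of feeding and treatment. Both groups received the high fat diet, so the controls carry the diet as well, and the ligand is the only labelled difference. The other 3 libraries, from mice on a normal diet given vehicle, entered no test here and are set beside the results as values. The dose of B-LGND2, the fat depot and whether a library holds 1 animal or several are not stated in the labels. The deposited table has 39130 rows, of which 28091 were tested and 11039 were too low to test.

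B-LGND2 is a compound known here by its code, and the series title describes an estrogen receptor beta ligand. Estrogen receptor beta is a nuclear receptor: it sits in the cell as a transcription factor, and binding of a ligand changes which genes it switches on or off. White adipose tissue stores triglyceride in adipocytes and releases fatty acids and hormones such as leptin and adiponectin. It also contains blood vessels, stromal cells and immune cells, and feeding a high fat diet is known to enlarge adipocytes and to draw in macrophages. The question of the comparison was which transcripts differ in this tissue when the ligand is added to the diet.

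Each row of the table is a sequence record named by a GI number, a running number once given to sequence records, and the files pair these numbers with no gene names. No GI number matched an entry of the gene tables at hand (0 of 39130), so adipocyte markers, markers of other cell types and estrogen receptor targets could not be looked up, and the tissue label could not be checked against its markers. Rows are therefore described by their values, and only the leading 2 in each direction are given by number. Levels are in CPM, the read count of a row scaled to a common library size. They are not divided by transcript length and serve to compare a row between libraries, not rows with each other.

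The 6 libraries held 30067542 to 43129222 reads each, and 1 CPM stood for 31.85 to 39.64 reads. They did not sort by treatment. Across rows, high fat diet B-LGND2 replicates 1 and 3 were the most alike of the 15 pairs, with a Pearson r of log2 CPM of 0.980, and 6.17% of rows differed by more than 2-fold between them. The next closest pair crossed the groups: vehicle replicate 1 and B-LGND2 replicate 2, at 0.971, with 10.8% of rows more than 2-fold apart. The vehicle libraries were less alike than that, at 0.835 to 0.911, with 27.8% to 28.5% of rows more than 2-fold apart. Vehicle replicate 2 was closer to B-LGND2 replicates 1 and 3, at 0.9425 and 0.9379, than to vehicle replicates 1 and 3, at 0.9041 and 0.8345. These correlations describe the libraries, since rows are not independent replicates. In the results below, B-LGND2 replicate 2 and vehicle replicate 1 are therefore named in several places. Where they are not named, they may still stand apart from their group.

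**Figure D1:**
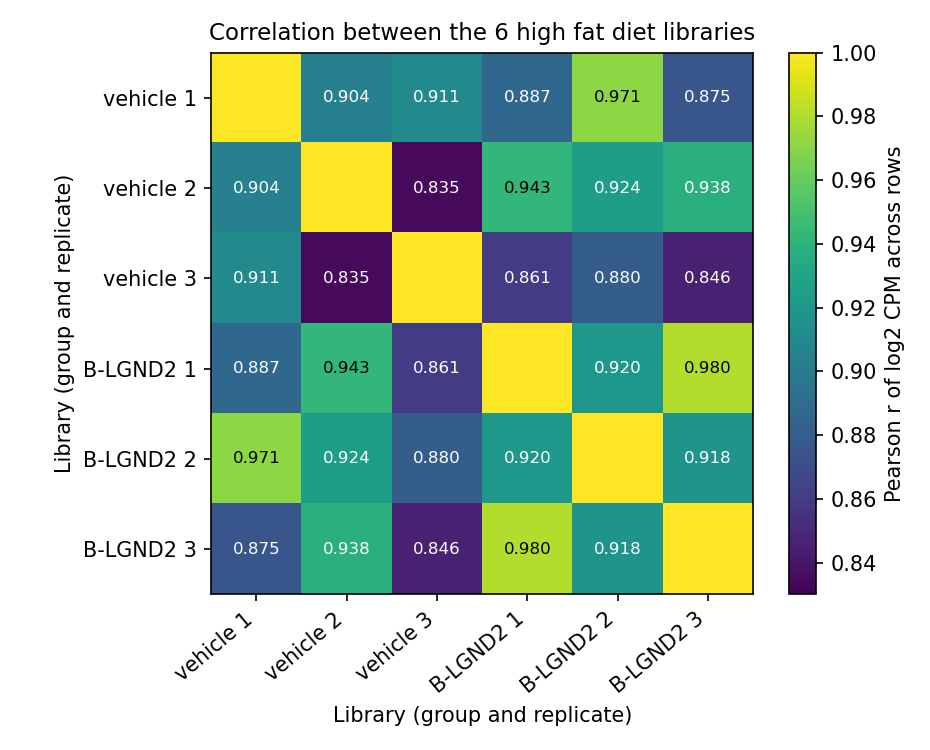
Pearson correlation of log2 CPM across tested rows for each pair of the 6 high fat diet libraries, with libraries on both axes and colour giving r. B-LGND2 replicates 1 and 3 reach 0.980, and the vehicle 1 and B-LGND2 2 pair, which crosses the groups, reaches 0.971.

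The rows that passed the test numbered 3, and all of them were nearly absent with B-LGND2. GI 149259903 stood at 71.1, 63.6 and 56.7 CPM in the vehicle libraries and at 0.840, 0.942 and 0.530 CPM in the B-LGND2 libraries. All 3 libraries of each group were thus close together and far from the other group. In reads, the B-LGND2 values were 32, 30 and 21, against 2445, 2051 and 1966 with vehicle. The fitted log2 difference was -6.39 ± 0.29 (SE), a level 83.7-fold lower with B-LGND2, with a 95% interval from -7.08 to -5.69 and an adjusted p = 0.00921 (limma-voom, Benjamini-Hochberg over all tested rows).

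GI 142363657 was likewise near 0 in every B-LGND2 library and well above it in every vehicle library. Its vehicle libraries were at 18.4, 13.1 and 14.2 CPM, and its B-LGND2 libraries at 0.262, 0.0942 and 0.177 CPM. The latter rest on 10, 3 and 7 reads, so the size of the difference is less certain than its direction. The log2 difference was -6.39 ± 0.39 (SE), with a 95% interval from -7.33 to -5.44 and an adjusted p = 0.0305 in limma-voom. The remaining called row, singled out only because it passed, was at 46.2, 43.5 and 29.4 CPM with vehicle and at 0.210, 0.345 and 0.0757 CPM with B-LGND2, from 8, 11 and 3 reads. Its log2 difference was -7.68 ± 0.51 (SE), with an adjusted p = 0.0355 in limma-voom. In bulk tissue such values cannot tell fewer cells of a type from less RNA per cell.

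The same 3 rows were also nearly absent from a library of animals that received no B-LGND2. On a scale set over all 9 libraries, GI 149259903 was at 334.1 and 290.3 CPM in normal diet vehicle replicates 1 and 3 but at 0.636 CPM in replicate 2. That library lay within the range of the B-LGND2 libraries on this scale, 0.491 to 0.906 CPM. GI 142363657 was at 85.0 and 77.3 CPM in normal diet replicates 1 and 3 and at 0.150 CPM in replicate 2, where 4 reads were counted. The remaining called row was at 183.3 and 166.4 CPM against 0.0748 CPM. A level this low therefore occurred without B-LGND2, in 1 of the 6 libraries given vehicle.

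**Figure D2:**
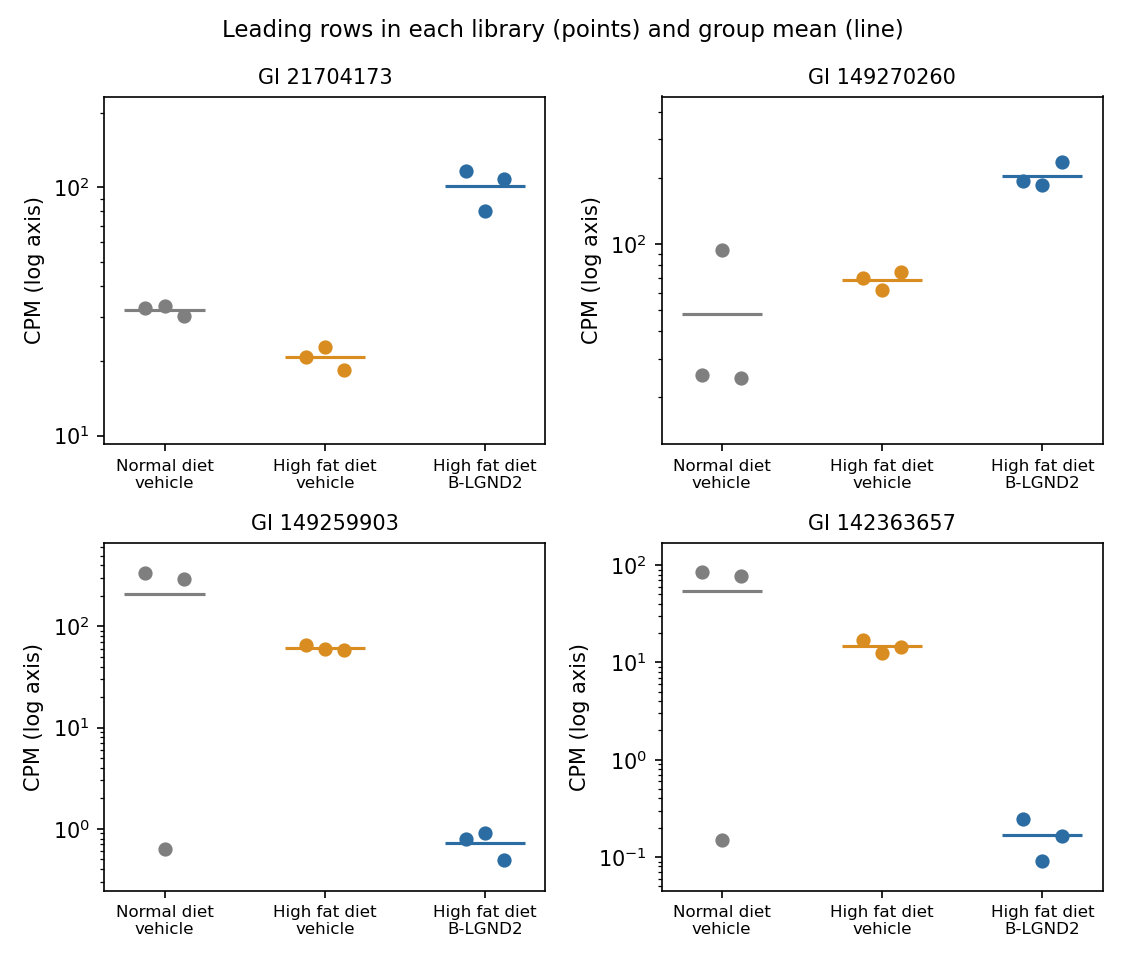
Level in CPM (log axis, scaled over all 9 libraries) of the leading 2 rows higher and the leading 2 rows lower with B-LGND2, with each point a library and each line a group mean. In both lower panels, normal diet vehicle replicate 2 sits with the B-LGND2 libraries, at 0.636 and 0.150 CPM.

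The calls made up 0.0107% of tested rows in the lower direction and 0% in the higher direction. Limma-voom called 3 rows lower and 0 higher, and limma-trend called 6 lower and 0 higher. The calls depended on single libraries. Without vehicle replicate 2, vehicle replicate 3, B-LGND2 replicate 1 or B-LGND2 replicate 3, limma-voom called 0 rows in either direction, although the direction of the named rows held. Over every setting tried, the log2 difference ranged from -6.56 to -6.14 for GI 149259903 and from -6.71 to -6.05 for GI 142363657, which the filter left out of 4 of the 22 settings. Without vehicle replicate 1 there were 23 rows called lower, and without B-LGND2 replicate 2 there were 21. With all 9 libraries in the fit, whose normal diet group spread widely in these rows, limma-voom called 0 rows, and 1498 had an unadjusted p under 0.05. The rows called lower shared the pattern of the first 3: normal diet vehicle replicate 2 was below 1/8 of both other normal diet libraries in 23 of 23 rows called without vehicle replicate 1, and in 21 of 21 called without B-LGND2 replicate 2. Among all tested rows that was so in 5.56%.

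**Figure D3:**
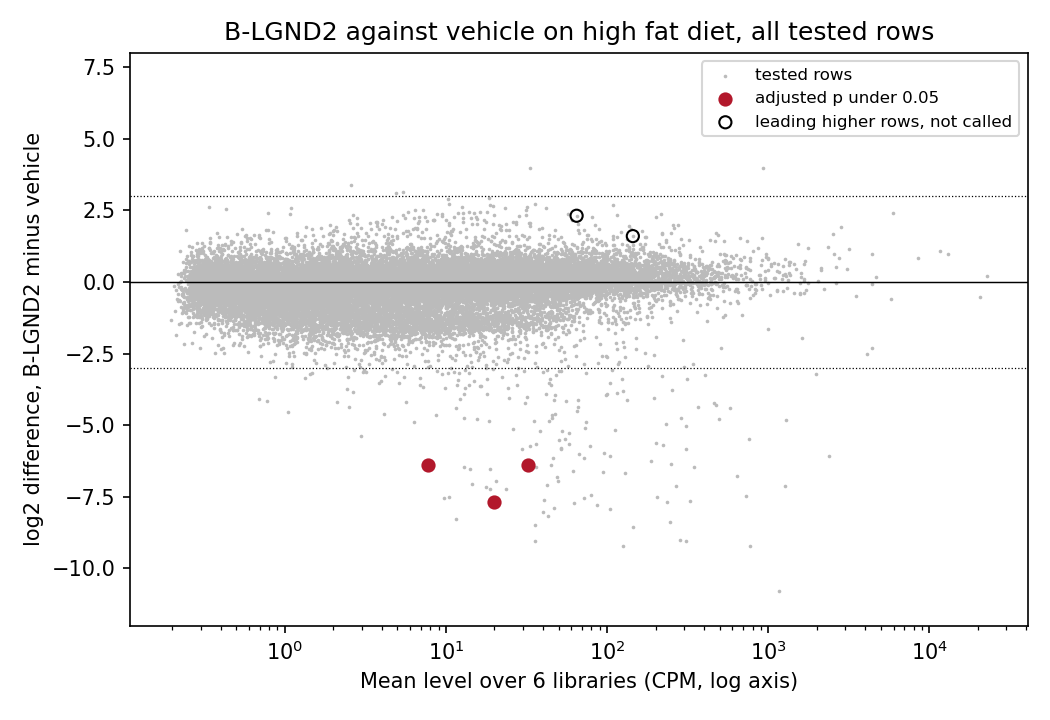
Log2 difference between B-LGND2 and vehicle for each tested row against its mean level over the 6 libraries (CPM, log axis), with dotted lines at 8-fold. The 3 called rows are filled, the leading 2 higher rows are open, and the rows beyond 8-fold lie almost all below zero (185 lower, 5 higher).

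Fitted differences of large size were more often in the lower direction. Beyond 2-fold, 3242 rows were lower with B-LGND2 and 756 higher, but in most of the lower rows the groups overlapped. Those without overlap numbered 614 lower and 402 higher, and among all tested rows regardless of size 5.14% lay apart in the lower and 8.57% in the higher direction. Beyond 8-fold there were 185 lower and 5 higher, of which 92 and 3 had no overlap, and beyond 64-fold 54 lower and 0 higher, of which 44 lower rows had no overlap. These counts use fitted differences with no test, and the lower rows behind them were not single-read rows: 162 of the 185 had a mean of at least 5 CPM. No row was switched fully on or off, in the sense of at least 10 reads in all 3 libraries of one group and 0 reads in all 3 of the other (0 rows in each direction).

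The 185 rows that were over 8-fold lower fell into 2 kinds. In 92 of them all 3 B-LGND2 libraries were below all 3 vehicle libraries. Their median level was 23.7, 49.1 and 46.0 CPM in vehicle replicates 1 to 3 and 0.382, 2.19 and 0.234 CPM in B-LGND2 replicates 1 to 3. On the same scale of all 9 libraries it was 298.4 and 288.6 CPM in normal diet vehicle replicates 1 and 3 and 0.225 CPM in replicate 2. So the rows were highest in 2 normal diet libraries, and lowest in the remaining normal diet library and in B-LGND2 replicates 1 and 3. The low B-LGND2 levels follow from how the rows were chosen, and the normal diet levels do not.

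In the other 93 rows the groups overlapped. Rows chosen for overlap must have some B-LGND2 library at or above the lowest vehicle library. For B-LGND2 replicate 2 that was so in 87 of the 93, against 23298 of all 28091 tested rows. It was so while replicates 1 and 3 were both below the lowest vehicle library in 85 of the 93, against 2344 of all tested rows. A fitted level over 8-fold lower despite overlap also favours rows in which the other B-LGND2 libraries are very low. All tested rows are therefore no fair baseline for the 85. The median of the 93 rows was 108.1 CPM in vehicle replicate 1, against 18.5 and 14.6 CPM in replicates 2 and 3. With B-LGND2 it was 75.2 CPM in replicate 2, against 0.296 and 0.234 CPM in replicates 1 and 3. The 2 libraries that were high here, vehicle replicate 1 and B-LGND2 replicate 2, are the pair that correlated best across the groups. Normal diet vehicle replicate 2 was again low, at 0.150 CPM against 149.7 and 118.2 CPM.

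Of all 185 rows, normal diet vehicle replicate 2 was below 1/8 of both other normal diet libraries in 182, or 98.4%, against 5.56% of all tested rows. The normal diet libraries had no part in choosing these rows. The rows took 6.68% of all reads in vehicle replicate 1 (95% Wilson interval 6.67 to 6.68%), 2.20% in replicate 2 (2.198 to 2.208%) and 2.54% in replicate 3 (2.536 to 2.547%). With B-LGND2 they took 0.0381% (0.0375 to 0.0387%), 3.69% (3.68 to 3.70%) and 0.0408% (0.0402 to 0.0414%). Replicate 2 thus lay within the vehicle range and the others far below it. Choosing rows over 8-fold lower with B-LGND2 lowers its shares by itself, so no conclusion is drawn from the low ones. In the normal diet libraries the shares were 13.4%, 0.0370% and 13.7%. Intervals cover counting error only. What these rows are, and the part that the make-up of the tissue sample has in them, was not tested.

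A set of 115 abundant rows defined on the normal diet libraries alone crosses this one. Its rows reached 100 CPM in replicates 1 and 3 of that group while staying within 1 CPM in replicate 2. In the comparison with B-LGND2, 111 of the 115 were tested and all 111 had a lower fitted level with the ligand. Among all tested rows 51.2% had a lower fitted level. Of the 111, 100 were over 8-fold lower, which is 90.1% of the set and 54.1% of the 185 rows above, against 0.659% of all tested rows. The groups were apart in 58 of the 111, or 52.3%, all lower with B-LGND2, against 5.14% of all tested rows. They overlapped in 53, and in 50 of those 53 B-LGND2 replicate 2 was at or above the lowest vehicle library. Among all tested rows that was so in 23298 of 28091, and overlap requires it of some B-LGND2 library. Limma-voom called 2 of the 111, against 0.0107% of all tested rows.

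**Figure D4:**
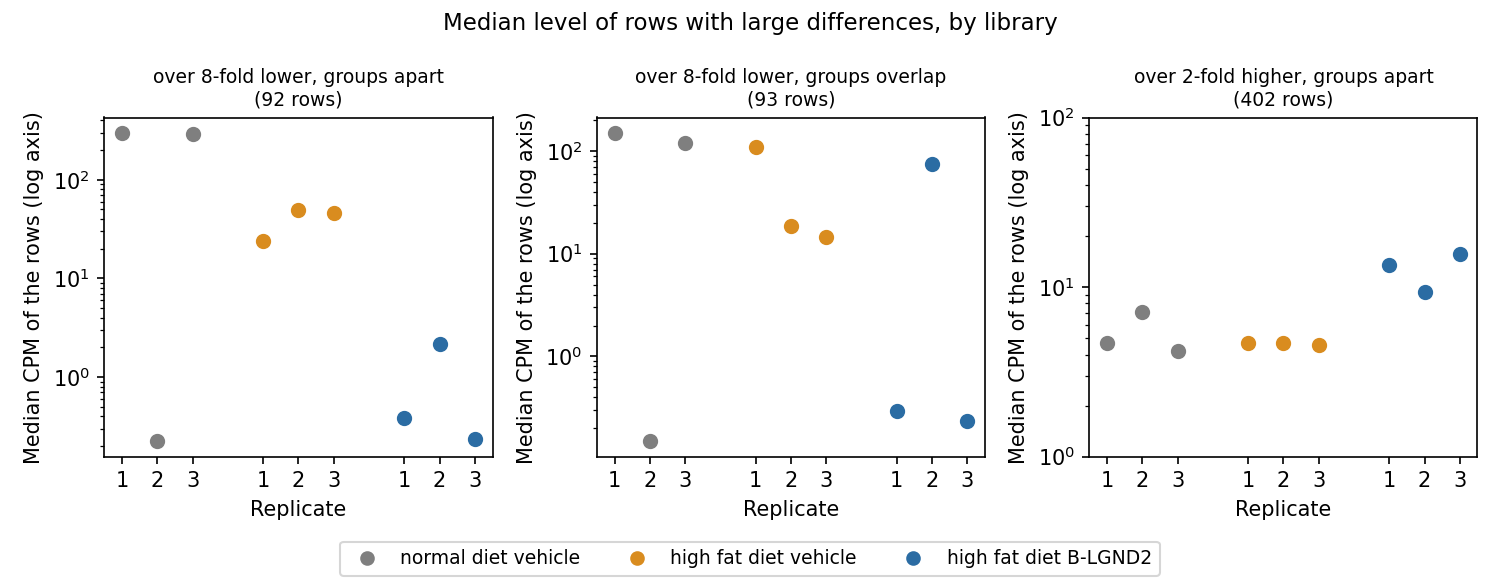
Median level in CPM (log axis, scaled over all 9 libraries) of rows over 8-fold lower with B-LGND2 whose groups were apart (92 rows) or overlapped (93 rows), and of rows over 2-fold higher whose groups were apart (402 rows), with each point a library. Normal diet vehicle replicate 2 is low in both lower sets, and B-LGND2 replicate 2 is at 75.2 CPM in the second.

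In the higher direction the leading row was GI 21704173. It was at 22.4, 24.0 and 18.1 CPM with vehicle and at 123.9, 83.5 and 116.5 CPM with B-LGND2. Every B-LGND2 library was thus more than 3 times the highest vehicle library. The log2 difference was 2.32 ± 0.24 (SE), or 4.98-fold, with a 95% interval from 1.74 to 2.89. It did not pass, with an adjusted p = 0.16 in limma-voom. Unlike the called lower rows, it did not single out a normal diet library. The 3 normal diet libraries were at 32.8, 33.3 and 30.4 CPM on the scale of all 9 libraries, between the groups on the high fat diet.

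GI 149270260 came next. Its vehicle libraries were at 75.5, 65.1 and 72.96 CPM and its B-LGND2 libraries at 205.6, 194.3 and 254.1 CPM, so the groups did not overlap and B-LGND2 replicate 2 was close to replicate 1. The log2 difference was 1.61 ± 0.20 (SE), or 3.04-fold, with a 95% interval from 1.13 to 2.08 and an adjusted p = 0.235 in limma-voom. On the scale of all 9 libraries it was at 25.3, 93.8 and 24.4 CPM on the normal diet. On that scale the high fat diet libraries were at 61.7 to 74.5 CPM with vehicle and at 186.9 to 235.6 CPM with B-LGND2. Normal diet replicate 2 thus stood apart from the rest of its group and above every high fat diet vehicle library. It was still nearer to the level of those vehicle libraries than to the B-LGND2 level.

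The 20 leading rows of each direction, taken by the same conditions, differed in size and in what the normal diet libraries showed. The lower rows were 5.02 to 524-fold lower with B-LGND2, with a median of 86.0-fold. Normal diet vehicle replicate 2 was below 1/8 of both other libraries of its group in 19 of 20, against 5.56% of all tested rows. The higher rows were 2.24 to 15.8-fold higher, with a median of 3.79-fold. In 15 of these 20 every B-LGND2 library was above every normal diet library, against 8.80% of all tested rows. Choosing rows that are high in every B-LGND2 library raises that count by itself. Normal diet replicate 2 was the highest of its group in 17 of 20, against 39.9% of all tested rows. The adjusted p of these 20 higher rows in limma-voom was 0.16 to 0.399.

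A wider set of higher rows, the 402 that were over 2-fold higher and did not overlap, had medians of 4.69, 4.71 and 4.54 CPM with vehicle. With B-LGND2 the medians were 13.6, 9.35 and 15.6 CPM, and replicate 2 was the lowest of its group in 84.1% of these rows, against 43.5% of all tested rows. On the normal diet the medians were 4.66, 7.09 and 4.17 CPM, and replicate 2 was the highest of its group in 69.9% of the rows, against 39.9% of all tested rows. All B-LGND2 libraries were above all normal diet libraries in 175 of the 402 rows, or 43.5%, against 8.80% of all tested rows. The rows were chosen for high levels in every B-LGND2 library, which by itself raises this share, so no conclusion is drawn from it. Limma-voom called 0 of the 402, and 0% of all tested rows in the higher direction.

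Counted by p or by lack of overlap, whatever their size, more rows were higher than lower with all 6 libraries. At an unadjusted p under 0.05 limma-voom gave 1219 rows higher with B-LGND2, 4.34% of those tested, and 728 lower, 2.59%. The sum of 1947 compares with 1405 that the threshold itself would give with no differences. Groups did not overlap in 2408 rows in the higher direction, 8.57%, and in 1444 in the lower direction, 5.14%. Both directions together made 13.7%, where a random order of 3 libraries against 3 gives a share of 0.1. The share in the lower direction is near what a random order gives per direction. Rows of 20 to 100 CPM leaned most, with 944 of 6985 apart and higher against 219 apart and lower. Rows under 1 CPM leaned in the opposite direction, with 194 of 5663 apart and higher against 416 apart and lower. The median log2 difference moved with the level as well, from -0.18 in rows under 1 CPM to 0.14 in rows of 20 to 100 CPM and 0.16 in rows of 100 CPM and over. A shift that follows the level of a row was not separated from an effect of treatment.

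That balance did not hold when libraries were left out. The higher direction had 62.6% of the rows at an unadjusted p under 0.05 with all 6 libraries, 58.9% without B-LGND2 replicate 2, and 39.4 to 51.0% without any 1 of the others. Without vehicle replicate 2 the balance turned, with 1946 rows in the higher and 2987 in the lower direction before adjustment. The balance also turned without vehicle replicate 1, with 797 higher and 884 lower, and without vehicle replicate 3, with 854 and 1113. Without B-LGND2 replicate 1 there were 452 and 435, and without replicate 3 of that group 339 and 357. Both totals are below what the threshold gives by itself, 1375 and 1382 rows. Without B-LGND2 replicate 2 there were 1626 and 1136.

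**Figure D5:**
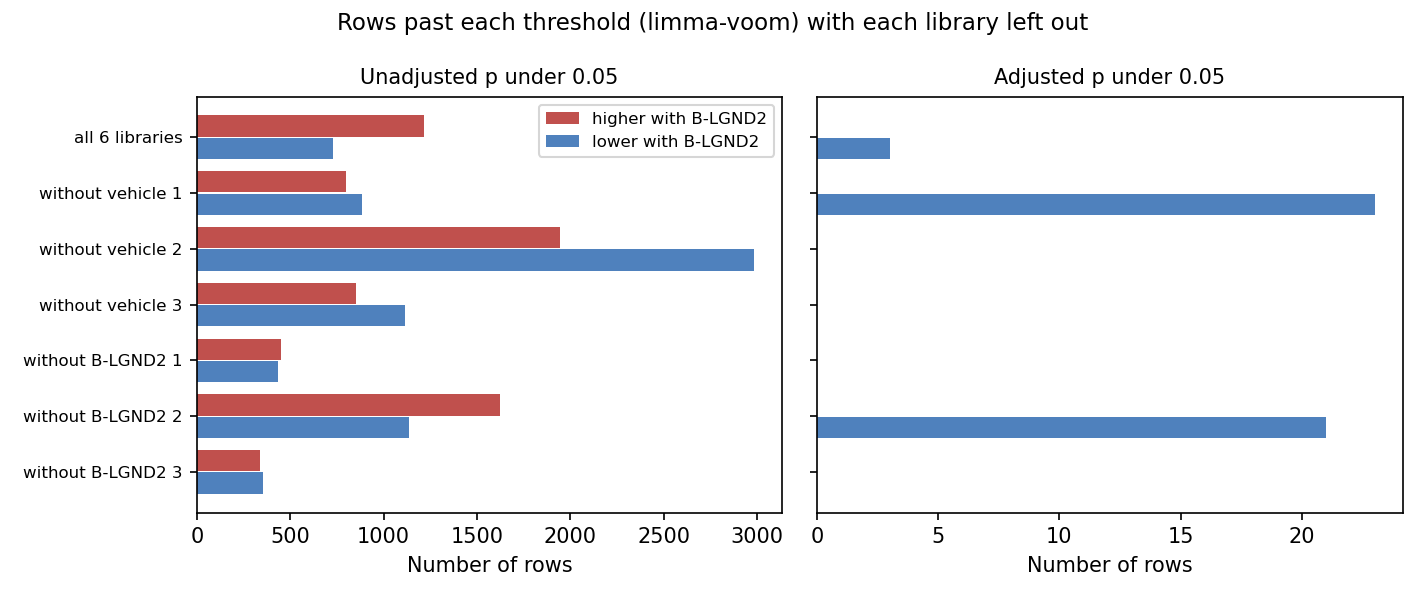
Bars count the rows with a higher or a lower level under B-LGND2 by limma-voom, before and after adjustment of p at 0.05, with all 6 libraries and with each left out. The count of lower rows exceeds that of higher rows without any 1 vehicle library and, by 357 to 339, without B-LGND2 3, and calls appear only with all 6 libraries (3 lower), without vehicle 1 (23) and without B-LGND2 2 (21).

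For part of the rows the intervals limit how large a difference can be. The 95% interval of the log2 difference lay within 2-fold in either direction for 8957 rows, or 31.9% of those tested. It did so for 4506 rows without B-LGND2 replicate 1, 5487 without replicate 2 and 5100 without replicate 3 of that group. With all 6 libraries the share was 52.6% of rows at 20 to 100 CPM and 39.7% at 100 CPM and over, but 21.5% at 1 to 5 CPM and 12.0% under 1 CPM. The interval reached a median of 0.89 on the log2 scale to either side of the estimate. The intervals are not adjusted for the number of rows, and the adjusted test asked for more: GI 21704173 did not pass with a log2 difference of 2.32 ± 0.24 (SE).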

How the data were processed

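Poly(A)-enriched RNA was sequenced as barcoded libraries on an Ion Torrent Proton, per the labels' protocols. STAR 2.5.2 and mm9 are named in the submitters' processing notes. How reads were assigned to rows, and with which annotation, was not stated in the labels, so near-identical, overlapping and antisense records may share reads. The deposited values are raw counts per row made by the authors, all whole numbers. The automated unit check could not read the columns, so edgeR and DESeq2 were not used.

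Lists and tests were chosen with earlier results of these data known, and the sets over 2-fold and 8-fold after their values were seen. The labels do not say that libraries come from separate animals, so each p-value reflects only how these libraries vary. Replicate numbers follow record order. No pair within a group was a duplicate (smallest chi-square per degree of freedom 25.9).

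A row was tested if it reached, in 3 or more of the 6 libraries, the CPM that 10 counts make at the median library size, and had 15 counts in all. After TMM scaling (trimming 0.3 of ratios and 0.05 of levels), limma-voom (limma 3.58.1, R 4.3.3) was fitted to the 6 libraries. The test was two-sided, with Benjamini-Hochberg adjustment at 0.05. The code was also run on simulated data with a common spread for all rows and libraries alike within a group. Such data lack the uneven libraries seen here, so the run does not show how the test performs on them. Named rows have the smallest p, 2 per direction, given non-overlapping groups and at least 5 CPM on average. Planned gene lists could not be matched. Alternatives covered scaling, filters, weights, limma-trend, all 9 libraries and leaving libraries out. Plots were drawn with matplotlib 3.10.9.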

Additional observations from a re-analysis of the deposited data

How the results depend on the processing

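The fits without both of the most alike libraries of different groups, with 8 libraries (all but normal diet vehicle replicate 2) and with the rows kept as with all 6 when a library was left out were chosen after seeing the data. Of 100 recomputed counts, 62 stayed within 1.5 times. The 62 include counts of rows called higher that were 0 both in the main fit and in the refit, which says little about stability. The 3 lower calls held under every other scaling and filter tried. Rows called lower numbered 6 with limma-trend, 28 with library quality weights, 0 with all 9 libraries, 8 with 8 libraries and 41 without both of the most alike libraries, and rows called higher 3 with weights and 1 with 8 libraries. Weights were 3.69 and 2.63 for B-LGND2 replicates 1 and 3 and 0.407 to 1.03 for the others. Leaving out each library gave 0 to 43 called lower: 23 without vehicle replicate 1, or 43 with the rows kept, and 21 without B-LGND2 replicate 2, or 14 with the rows kept. It gave 339 to 1946 rows higher and 357 to 2987 lower at an unadjusted p under 0.05, and 4506 to 9163 rows within 2-fold. Requiring 5 CPM gave 789 and 456 rows at an unadjusted p under 0.05 and 1407 and 780 without overlap, from fewer rows tested (14682). Quality weights gave 3025 and 2357 at an unadjusted p under 0.05, and the fit without both of the most alike libraries 1231 lower. For other changes the cause was not tested. No named row reversed in 84 refits. The limma-voom or limma-trend adjusted p ranged over 0.00074 to 0.815 for GI 149259903, 0.00476 to 0.815 for GI 142363657, 0.0196 to 0.999 for GI 21704173 and 0.0512 to 0.999 for GI 149270260. The edgeR and DESeq2 alternatives were not run. No paired analysis was possible because the labels pair no libraries.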

Other observations

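No difference between the groups was found in how reads were spread over rows, and a test of 3 libraries against 3 cannot show that the groups were alike. The 10 most abundant rows took 11.6 ± 2.11% of reads with B-LGND2 and 10.2 ± 2.51% with vehicle (SD, n = 3; exact permutation p = 0.5, two-sided, where 0.1 is the smallest possible). Vehicle replicate 3 had the flattest distribution of the 9 libraries, with 7.34% of reads in its 10 most abundant rows and 14.5% in its 50 most abundant. Rows with at least 10 reads numbered 27683 ± 505 with B-LGND2 and 28245 ± 1087 with vehicle (exact permutation p = 0.5, two-sided).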
